A study of Mus musculus with 12 samples.

Results

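The genes for the epithelial alarmins thymic stromal lymphopoietin (Tslp) and interleukin (IL)-33 (Il33), and for the receptor chains through which alarmins and type 2 cytokines are sensed (Crlf2, Il1rl1, Il4ra, Il13ra1, Il31ra and Osmr), were examined in mouse back skin. They were chosen by symbol and not by a rule on their values, though with earlier results of these data known. The deposited table of 18505 genes held all 8. All 8 had a mean level of at least 0.1 FPKM (fragments per kilobase of transcript and per unit of library size) and were therefore among the 15288 genes tested. RNA sequencing covered 12 samples, 4 per group, taken on day 10 from male wild-type BALB/c mice that were 5 to 6 weeks old. The control group received petroleum jelly, which the labels describe only as white space handling. The IMQ + NS group received imiquimod (IMQ) cream, a Toll-like receptor 7 agonist that produces psoriasis-like lesions, for 6 h each day, followed by saline under a dressing. In the IMQ + BZLF group the same cream was followed by external Banzhilian formula (BZLF), a mixture of traditional Chinese medicinal materials, and the dose given to the sequenced mice was not stated. All 3 groups were treated for 10 days. No group received BZLF without IMQ, so the effect of BZLF on skin without IMQ was not measured.

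Alarmins are cytokines that the barrier epithelium and stroma release when they are stressed or injured. TSLP binds its own chain, encoded by Crlf2, together with the IL-7 receptor alpha chain, and IL-33, which is stored in the nucleus, binds ST2, encoded by Il1rl1. Both act on dendritic cells, and on mast cells and group 2 innate lymphoid cells, which are sources of IL-4, IL-5 and IL-13. IL-4 and IL-13 signal through the IL-4 receptor alpha chain, with IL-13 receptor alpha 1 as its partner on keratinocytes and other cells outside the lymphoid lineage, to STAT6. IL-31, an itch cytokine, signals through IL-31 receptor A paired with the oncostatin M receptor (OSMR), and OSMR paired with gp130 is the receptor of oncostatin M. These genes are best known from atopic skin, whereas IMQ lesions are driven mainly by the IL-23 and IL-17 axis.

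The start sites of Il33, Il4ra and Il31ra are shown because the first pair had nearly parallel levels over the 12 samples and the last fell most in IMQ + NS skin. Windows of 300 bases, from 250 before to 50 after each annotated start, were taken from RefSeq (GRCm38.p6), in which 7 of the 8 genes were found, with 9 windows; Tslp was not among them. Capitals mark matches to the motifs searched on both strands, which were TTCNNNGAA, bound by STAT proteins, TGANTCA, bound by AP-1, and the NF-kappa B consensus. The TATA box was searched as TATAAA, and the CCAAT box also as ATTGG, its form on the other strand. No match overlapped another in the windows shown. Il33 has 2 annotated starts 20.7 kb apart, on the plus strand, at chr19:29924863-29925162 and chr19:29945540-29945839.
Il33, first start: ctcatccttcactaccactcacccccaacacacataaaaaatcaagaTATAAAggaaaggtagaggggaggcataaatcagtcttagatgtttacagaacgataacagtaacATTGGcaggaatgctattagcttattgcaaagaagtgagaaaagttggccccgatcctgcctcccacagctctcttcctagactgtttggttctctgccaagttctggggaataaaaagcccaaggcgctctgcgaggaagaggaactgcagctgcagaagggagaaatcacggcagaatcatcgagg
Il33, second start: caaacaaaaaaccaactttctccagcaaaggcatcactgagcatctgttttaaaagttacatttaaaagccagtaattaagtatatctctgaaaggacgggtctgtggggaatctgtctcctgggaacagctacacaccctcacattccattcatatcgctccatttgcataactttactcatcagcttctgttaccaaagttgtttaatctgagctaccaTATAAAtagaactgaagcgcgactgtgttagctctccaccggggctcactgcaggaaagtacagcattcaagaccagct
Il4ra, plus strand, chr7:125552021-125552320: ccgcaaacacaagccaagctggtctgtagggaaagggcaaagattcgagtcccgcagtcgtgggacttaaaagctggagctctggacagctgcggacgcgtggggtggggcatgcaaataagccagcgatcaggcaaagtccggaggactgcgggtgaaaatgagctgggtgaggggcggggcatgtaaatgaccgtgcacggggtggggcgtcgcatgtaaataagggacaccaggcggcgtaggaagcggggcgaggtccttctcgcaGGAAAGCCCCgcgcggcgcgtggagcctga
Il31ra, minus strand, chr13:112580613-112580912: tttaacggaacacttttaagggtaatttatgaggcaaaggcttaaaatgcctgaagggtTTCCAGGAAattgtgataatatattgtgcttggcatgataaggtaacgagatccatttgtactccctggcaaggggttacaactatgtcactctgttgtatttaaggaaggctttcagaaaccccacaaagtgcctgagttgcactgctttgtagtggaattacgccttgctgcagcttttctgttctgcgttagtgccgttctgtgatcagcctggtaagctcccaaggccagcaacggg

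The second Il33 window held TATAAA at position -29 from the start, and the first held it farther upstream, at -203, with ATTGG at -138. The Il4ra window held the NF-kappa B match GGAAAGCCCC at position 20 after the start, and the Il31ra window held TTCCAGGAA at -191. Across all 32851 windows of the RefSeq table, 8.3% held TTCNNNGAA, 7.8% TGANTCA, 8.5% the NF-kappa B consensus, 13.6% TATAAA and 37.4% CCAAT. The Il4ra window had a GC content of 62.0% and 25 CpG dinucleotides, against 46.3% and 6 in the first and 42.3% and 5 in the second Il33 window, and 44.7% and 6 at Il31ra; the median of all windows was 52.7%. In the annotation of GRCm38 (GENCODE M21), Il33 spans chr19:29925114-29960718, Crlf2 chr5:109554709-109558993 on the minus strand, Il1rl1 chr1:40429570-40465415, Il4ra chr7:125552120-125579474, Il13ra1 chrX:36112110-36171259, Il31ra chr13:112519898-112594360 on the minus strand and Osmr chr15:6813577-6874969 on the minus strand. Il4ra shares 571 exonic bases with the antisense transcript Gm44876 and Il31ra shares 45 with the pseudogene Gm3226 on the same strand. Whether the counting used strand is not given in the sources used here, so reads from these stretches cannot be assigned with certainty.

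The deposited FPKM values of a sample summed to between 444660 and 506622, and between 16649 and 16941 genes were above 0. Read counts could not be recovered from them, so the depth is unknown and the precision of each mean rests on its 4 replicates. Keratinocyte markers were present in every sample, with a summed level of 5 markers between 1841 and 7578 FPKM. Control replicate 2 stood apart from the other control samples, at -63.2 on the first principal component against -116 to -122, with a summed level of 5 hair shaft markers of 129 FPKM against at most 18.9 in the other controls. It also held seminal vesicle transcripts (summed level 39.1 FPKM), as did IMQ + BZLF replicate 2 (38.8 FPKM), while the other samples were at 0.0441 FPKM or below. Transcripts of 6 pancreas genes were present in all groups, with summed levels of 7.41 to 94.1 FPKM in control, 2.30 to 75.1 in IMQ + NS and 7.93 to 88.1 in IMQ + BZLF skin, lowest in replicate 4 of each group. Values with control replicate 2, IMQ + BZLF replicate 2 or both left out are given for Tslp, Il33, Il4ra and Il31ra, but not for every other call.

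The 8 genes differed in their patterns over the groups. Tslp and Il31ra fell in both IMQ groups against control skin and did not pass the test between the IMQ groups. Marker genes of other tissue parts moved in the same comparisons with control skin. All 5 hair shaft markers rose in both, from summed levels of 7.29 to 129 FPKM in control to 3521 to 5184 in IMQ + NS and 4719 to 7246 in IMQ + BZLF skin. All 4 skeletal muscle markers fell (2727 to 6790, 504 to 1233 and 896 to 1218 FPKM), as did 3 of 4 adipocyte markers (565 to 1407, 240 to 377 and 318 to 367 FPKM), and the part of these tissues in the levels of the 8 genes was not tested. Il33 and Il4ra did not pass the test between IMQ + NS and control skin and fell in IMQ + BZLF skin against both other groups. Crlf2 and Il13ra1 were lower in IMQ + BZLF skin than in both other groups, and passed the test only against control skin, whereas Osmr and Il1rl1 passed in none of the comparisons. None of the 8 genes rose in any comparison.

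**Figure D1:**
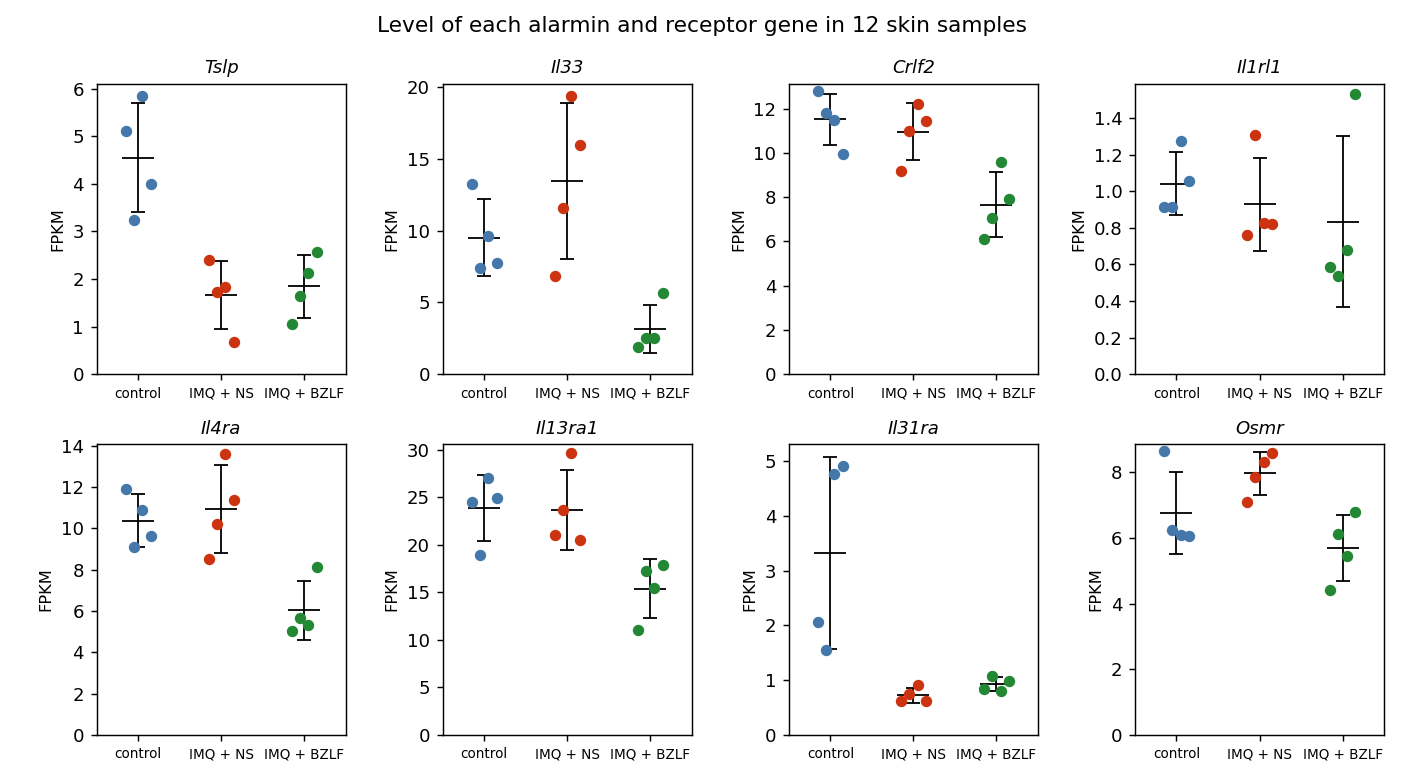
FPKM of each gene (y axis, linear and starting at 0) in the control, IMQ + NS and IMQ + BZLF samples, with 1 point per sample, replicates 1 to 4 from left to right within a group, and bars for the mean ± SD (n = 4). The 4 control samples lie above all IMQ samples for Tslp (at least 3.24 against at most 2.56 FPKM) and Il31ra (at least 1.56 against at most 1.07 FPKM), and the 4 IMQ + BZLF samples lie below all others for Il33 (at most 5.64 against at least 6.85 FPKM) and Il4ra (at most 8.14 against at least 8.52 FPKM).

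In each comparison a gene was said to rise or fall at an adjusted p below 0.05 (limma on log2(FPKM + 0.1), Benjamini-Hochberg adjustment over the 15288 genes), and was called a differentially expressed gene (DEG) where the change was also over 2-fold. In IMQ + NS against control skin, 0 of the 8 genes rose and 2 fell, both of them DEGs, where 29.0% of all genes tested rose, 27.1% fell and 11.0% were DEGs that fell. Between the IMQ + BZLF and IMQ + NS groups, 0 rose and 2 fell, 1 of them a DEG, where 1.28% of all genes rose, 5.17% fell and 2.20% were DEGs that fell. When BZLF-treated skin was compared with control skin, 0 rose and 6 fell, 3 of them DEGs, where 23.8% of all genes rose, 29.2% fell and 10.1% were DEGs that fell. The median log2 fold change of the 8 genes was -0.04, -0.51 and -0.72 in these comparisons, against 0.054, -0.023 and -0.018 over all genes. The first group lay wholly below the second for 2, 4 and 6 of the 8 genes, against 25.7%, 10.9% and 28.1% of all genes. Every pair of these comparisons shares a group, so they are not independent of each other.

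The background shares depended on the scaling. Among all genes, 4427 rose and 4142 fell in IMQ + NS against control skin with FPKM as deposited, and 3161 rose and 4999 fell after scaling to equal sums, which moved the median of all genes from 0.05 to -0.07; quantile normalization moved it to -0.07 as well. With BZLF against IMQ + NS skin, 195 rose and 791 fell, and 295 rose and 579 fell with median ratio scaling and 311 rose and 659 fell after quantile normalization. With BZLF against control skin, 3640 rose and 4458 fell, and 2771 rose and 5179 fell with equal sums. None of the calls on the 8 genes changed under these scalings.

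**Figure D2:**
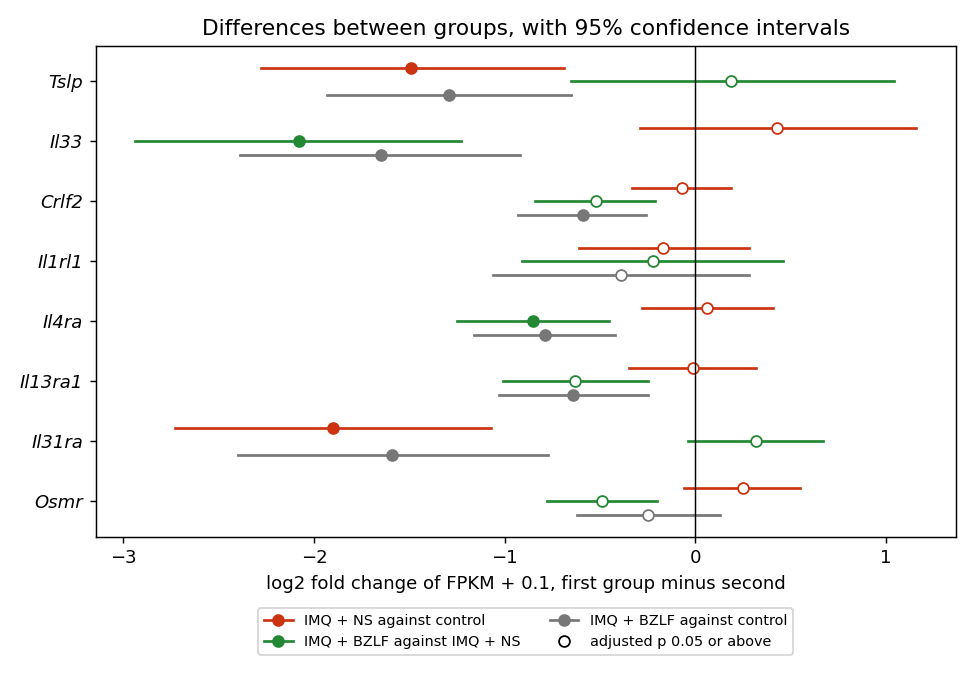
Log2 fold change of FPKM + 0.1 (x axis; the first group named minus the second) of each gene in the 3 comparisons, with 95% confidence intervals from limma (4 samples per group); filled points have an adjusted p below 0.05 and open points do not. Tslp and Il31ra lie below -1 in both comparisons with control skin, and Il33 lies at -2.08 and -1.65 in the 2 comparisons of IMQ + BZLF skin.

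Tslp encodes an alarmin that keratinocytes release and that primes dendritic cells. Its level in control replicates 1 to 4 was 5.10, 3.24, 5.84 and 4.0 FPKM, with a mean of 4.55 ± 1.15 FPKM (SD, n = 4). In IMQ + NS skin it was 2.39, 1.73, 1.82 and 0.682 FPKM (mean 1.66 ± 0.713) and in IMQ + BZLF skin 1.05, 1.63, 2.12 and 2.56 FPKM (mean 1.84 ± 0.653). Every IMQ sample, with or without BZLF, lay below every control sample. Tslp fell 2.80-fold in IMQ + NS against control skin (log2 fold change -1.49, SE 0.35, adjusted p = 0.00665) and 2.45-fold in IMQ + BZLF against control skin (-1.29, SE 0.28, adjusted p = 0.00506). Without control replicate 2 the differences were -1.63 and -1.44, and with IMQ + BZLF replicate 2 also left out the second was -1.41. Between IMQ + BZLF and IMQ + NS skin the difference was 0.19 (95% confidence interval -0.65 to 1.04, adjusted p = 0.801), and it was -0.16 without IMQ + NS replicate 4, the sample with the lowest Tslp. Keratinocyte markers moved the other way from Tslp in IMQ + NS skin: 4 of 5 rose, and their summed level was 1841 to 2960 FPKM in control, 4777 to 7578 in IMQ + NS and 2153 to 3701 in IMQ + BZLF skin. In bulk skin, fewer cells of a type and less RNA per cell cannot be told apart.

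Il33 encodes the nuclear alarmin made by keratinocytes, fibroblasts and endothelium. It was at 13.2, 7.40, 9.66 and 7.78 FPKM in control replicates 1 to 4 (mean 9.52 ± 2.67). It was at 6.85, 11.6, 19.4 and 16.0 FPKM in IMQ + NS skin (mean 13.4 ± 5.42), and at 1.91, 2.51, 2.51 and 5.64 FPKM in IMQ + BZLF skin (mean 3.14 ± 1.69). The IMQ + NS samples spread over a wider range than the controls and overlapped them, whereas all 4 IMQ + BZLF samples lay below every other sample. Il33 fell 4.24-fold in IMQ + BZLF against IMQ + NS skin (log2 fold change -2.08, SE 0.38, adjusted p = 0.0145) and 3.14-fold against control skin (-1.65, SE 0.32, adjusted p = 0.00301), each time with a two-sided exact permutation p of 0.0286, the smallest that 4 against 4 samples allow. The call against IMQ + NS skin was lost without IMQ + BZLF replicate 2 (-2.02, adjusted p = 0.0535), the library that held seminal vesicle transcripts. Against control skin the fold change was -1.70 (adjusted p = 0.00876) with that library and control replicate 2 both left out. The difference between IMQ + NS and control skin was 0.43 (95% confidence interval -0.29 to 1.16, adjusted p = 0.272), and without IMQ + NS replicate 1, the lowest of its group, Il33 rose (0.72, adjusted p = 0.0423).

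Markers of several cell types moved between IMQ + BZLF and IMQ + NS skin together with Il33. Of all genes tested 5.17% fell and 1.28% rose in this comparison. All 6 neutrophil markers fell, with summed levels of 3126 to 9889 FPKM in IMQ + NS, 62.6 to 83.2 in IMQ + BZLF and 31.6 to 50.3 in control skin. Of 6 macrophage and dendritic cell markers 2 fell, with summed levels of 123 to 165 FPKM in IMQ + NS, 71.9 to 115 in IMQ + BZLF and 168 to 254 in control skin. Of 5 keratinocyte markers 3 fell, while 0 of 5 endothelial markers (60.9 to 73.0 against 48.2 to 72.8 FPKM) and 0 of 6 fibroblast markers passed the test. Against control skin, where Il33 also fell in IMQ + BZLF skin, 29.2% of all genes fell and 23.8% rose. There 5 of 6 fibroblast markers fell (summed levels of 4286 to 8109 against 13085 to 18643 FPKM), as did all 5 endothelial markers (48.2 to 72.8 against 74.2 to 102 FPKM). All 6 macrophage and dendritic cell markers fell there too, while 4 of 5 keratinocyte markers rose. In IMQ + NS against control skin, 5 of 6 fibroblast and 4 of 5 endothelial markers also fell. Of the macrophage and dendritic cell markers 4 fell and 2 rose there, and 4 of 5 keratinocyte markers rose. Il33 did not pass the test in that comparison, where 27.1% of all genes fell and 29.0% rose. The part of these cells in the levels of Il33 was not tested.

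Among the alarmin receptors, Crlf2, the chain that binds TSLP, was the second or the third most abundant of the 8 genes in every group. Its level in replicates 1 to 4 was 12.8, 11.8, 11.5 and 9.97 FPKM in control skin (mean 11.5 ± 1.17), 9.17, 11.0, 12.2 and 11.4 FPKM in IMQ + NS skin (mean 11.0 ± 1.30) and 6.10, 7.08, 9.57 and 7.90 FPKM in IMQ + BZLF skin (mean 7.66 ± 1.47). The control and IMQ + NS samples overlapped, and among the IMQ + BZLF samples only replicate 3 reached the range of IMQ + NS skin. Crlf2 fell 1.51-fold in IMQ + BZLF against control skin (log2 fold change -0.59, SE 0.15, adjusted p = 0.0088). Against IMQ + NS skin the difference was -0.52 (95% confidence interval -0.84 to -0.21) and missed the threshold (adjusted p = 0.0598); with single samples left out, it passed without IMQ + BZLF replicate 3 (-0.63, adjusted p = 0.0316) or without IMQ + NS replicate 1 (-0.60, adjusted p = 0.0457). Between IMQ + NS and control skin it was -0.07 (95% confidence interval -0.33 to 0.19), so that Tslp fell there while the transcript of its receptor changed by less than the spread between replicates. The ratio of Crlf2 to Tslp FPKM was accordingly 1.97 to 3.64 in control, 3.83 to 16.8 in IMQ + NS and 3.08 to 5.83 in IMQ + BZLF samples.

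Il1rl1, the receptor of IL-33, was the least abundant of the 8 genes in control and IMQ + BZLF skin. It was at 0.913, 0.916, 1.28 and 1.06 FPKM in control, 0.761, 1.31, 0.824 and 0.823 in IMQ + NS and 0.587, 0.538, 0.677 and 1.53 in IMQ + BZLF replicates 1 to 4. The groups overlapped in all 3 comparisons, and a single high sample set the mean of IMQ + NS (0.929 ± 0.254) and of IMQ + BZLF skin (0.833 ± 0.468). The difference between IMQ + BZLF and IMQ + NS skin was -0.22 (95% confidence interval -0.91 to 0.46, adjusted p = 0.705) and against control skin -0.39 (-1.06 to 0.28, adjusted p = 0.29). Without IMQ + BZLF replicate 4, Il1rl1 fell against control skin (-0.70, adjusted p = 0.0158). The same sample had the highest Il33 of its group, so the ratio of Il33 to Il1rl1 FPKM stayed between 3.25 and 4.66 in IMQ + BZLF samples, against 7.35 to 14.5 in control and 8.88 to 23.5 in IMQ + NS samples. Summed levels of 8 mast cell markers, cells that carry ST2, were 202 to 341 FPKM in control, 146 to 204 in IMQ + NS and 104 to 194 in IMQ + BZLF skin. Of these 8 markers 3 rose and 3 fell in IMQ + NS against control skin, where 29.0% of all genes rose and 27.1% fell. Between the IMQ + BZLF and IMQ + NS groups 0 of the 8 passed the test. Summed levels of 6 markers of group 2 innate lymphoid and Th2 cells were 28.5 to 41.2, 47.1 to 53.4 and 43.9 to 53.5 FPKM in control, IMQ + NS and IMQ + BZLF skin. In IMQ + NS against control skin 3 of these 6 rose and 1 fell. The part of these cells in the level of Il1rl1 was not tested.

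Il4ra, the chain shared by the IL-4 and IL-13 receptors, was at 11.9, 9.07, 10.9 and 9.62 FPKM in control replicates 1 to 4 (mean 10.4 ± 1.27). It was at 8.52, 10.2, 13.6 and 11.4 FPKM in IMQ + NS (mean 10.9 ± 2.13) and at 5.03, 5.68, 5.30 and 8.14 FPKM in IMQ + BZLF skin (mean 6.04 ± 1.43). The highest IMQ + BZLF sample, replicate 4, lay just below the lowest IMQ + NS sample. Il4ra fell 1.80-fold in IMQ + BZLF against IMQ + NS skin (log2 fold change -0.85, SE 0.18, adjusted p = 0.0245; exact permutation p = 0.0286) and 1.73-fold against control skin (-0.79, SE 0.16, adjusted p = 0.00403). The first of these calls was lost in 6 of 19 alternatives, with values between -0.88 and -0.74: without a filter on low values (adjusted p = 0.0597), without IMQ + BZLF replicate 2 (0.0774) or 3 (0.0687), and without IMQ + NS replicate 2 (0.0517), 3 (0.0656) or 4 (0.0707). The second held in all 20 other fits. Between IMQ + NS and control skin the difference was 0.06 (95% confidence interval -0.28 to 0.41), and its sign was negative with equal sums (-0.07), after quantile normalization (-0.11) and without IMQ + NS replicate 3 (-0.05).

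Il13ra1, the chain that completes the receptor for IL-13 on skin cells, was the most abundant of the 8 genes in all 3 groups. It was at 24.5, 19.0, 27.1 and 24.9 FPKM in control (mean 23.9 ± 3.46), 21.0, 23.6, 29.6 and 20.5 in IMQ + NS (mean 23.7 ± 4.19) and 11.0, 17.2, 15.4 and 17.8 FPKM in IMQ + BZLF replicates 1 to 4 (mean 15.4 ± 3.09). No IMQ + BZLF sample reached the range of either other group. Il13ra1 fell 1.56-fold in IMQ + BZLF against control skin (log2 fold change -0.64, SE 0.17, adjusted p = 0.0129), while against IMQ + NS skin a difference of almost the same size (-0.63, 95% confidence interval -1.01 to -0.25) missed the threshold (adjusted p = 0.0583; exact permutation p = 0.0286). The ratio of Il13ra1 to Il4ra FPKM overlapped in the 3 groups, with means of 2.31 ± 0.276 in control skin, 2.19 ± 0.285 in IMQ + NS skin and 2.58 ± 0.456 in IMQ + BZLF skin. Summed levels of the macrophage and dendritic cell markers were also lower in IMQ + BZLF than in control skin, where all 6 fell, as did 29.2% of all genes. The sums were lower in IMQ + NS than in control skin too (123 to 165 against 168 to 254 FPKM). There 4 of the 6 markers fell and 2 rose, while Il13ra1 and Il4ra did not pass the test. The part of these cells in the levels of Il13ra1 and Il4ra was not tested.

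Il33 and Il4ra were closest to each other among the 12657 genes with a mean of at least 1 FPKM, with a Pearson r of 0.988 over the 12 samples on the log2 scale. The order of the replicates was the same for both genes in control skin, from replicate 1 to 3, 4 and 2, and in IMQ + NS skin, from replicate 3 to 4, 2 and 1. In IMQ + BZLF skin replicate 4 was highest and replicate 1 lowest for both. The points share their libraries and their group differences, so the coefficient describes these samples only. Next to Il4ra, the genes most like Il33 were Ncf4, a subunit of the phagocyte NADPH oxidase (r = 0.971), and Csf2rb, the shared beta chain of the IL-3, IL-5 and GM-CSF receptors (r = 0.969). Ncf4 had mean levels of 10.4, 12.6 and 5.12 FPKM and Csf2rb of 9.53, 11.2 and 6.44 FPKM in control, IMQ + NS and IMQ + BZLF skin. Next to Il33, the genes most like Il4ra were Csf2ra, the alpha chain of the GM-CSF receptor (r = 0.954), and Sh3bp2 (r = 0.953).

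**Figure D3:**
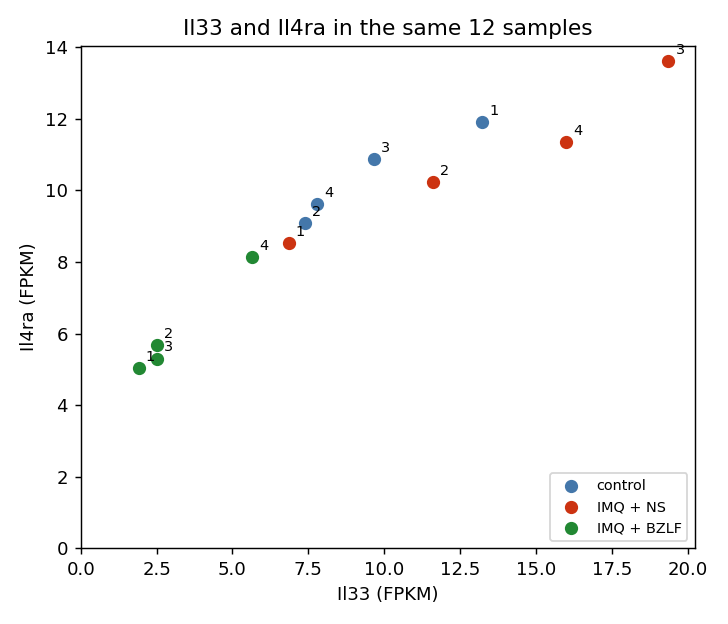
FPKM of Il4ra (y axis) against FPKM of Il33 (x axis) in the 12 samples, coloured by group and numbered by replicate. The 4 IMQ + BZLF samples lie at the lower left (Il33 1.91 to 5.64 and Il4ra 5.03 to 8.14 FPKM), and IMQ + NS replicate 3 lies highest on both axes (19.4 and 13.6 FPKM).

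Il31ra encodes the chain that gives the itch receptor its specificity for IL-31. It was at 2.06, 1.56, 4.77 and 4.90 FPKM in control replicates 1 to 4, with a mean of 3.32 ± 1.76 FPKM. In IMQ + NS skin it was at 0.624, 0.751, 0.905 and 0.621 FPKM (mean 0.725 ± 0.134) and in IMQ + BZLF skin at 0.843, 1.07, 0.799 and 0.982 FPKM (mean 0.923 ± 0.125). The control samples lay at a pair of levels, with replicates 3 and 4 far above replicates 1 and 2, and even the lower pair stood above all 8 IMQ samples, which were tightly grouped. Il31ra fell 3.74-fold in IMQ + NS (log2 fold change -1.90, SE 0.37, adjusted p = 0.00239) and 3.0-fold in IMQ + BZLF against control skin (-1.59, SE 0.36, adjusted p = 0.00616), and neither call was lost in any alternative run. Without control replicate 2, the lowest control sample, the values were -2.20 and -1.88. Between IMQ + BZLF and IMQ + NS skin the difference was 0.32 (95% confidence interval -0.04 to 0.67, adjusted p = 0.265).

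The genes most like Il31ra over the 12 samples were Gpx3 (r = 0.974), Slco2b1 (r = 0.973) and Podn (r = 0.973), and all 3 had their highest mean in control skin, at 1136, 28.5 and 50.01 FPKM, against 188, 6.94 and 10.6 FPKM in IMQ + NS skin. Of 6 fibroblast markers 5 fell in IMQ + NS against control skin, with summed levels of 13085 to 18643 FPKM in control, 3681 to 4890 in IMQ + NS and 4286 to 8109 in IMQ + BZLF skin. Of 4 Schwann cell markers 3 fell, with summed levels of 57.4 to 93.3, 17.1 to 25.2 and 21.0 to 39.7 FPKM. Sensory neurons, the best known site of Il31ra, have their cell bodies outside the skin. The 6 of 8 sensory neuron markers with a value summed to 0.905 to 1.35 FPKM in control, 3.74 to 6.30 in IMQ + NS and 2.60 to 3.36 in IMQ + BZLF skin. Only 4 of these markers were tested, and in IMQ + NS against control skin 1 rose and 3 did not pass. Of all genes tested 29.0% rose and 27.1% fell in that comparison. The part of any of these cells in the level of Il31ra was not tested.

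Osmr, which pairs with Il31ra and also serves oncostatin M, was at 8.65, 6.26, 6.11 and 6.05 FPKM in control replicates 1 to 4 (mean 6.77 ± 1.26). It was at 7.09, 7.86, 8.33 and 8.60 FPKM in IMQ + NS (mean 7.97 ± 0.662) and at 4.42, 6.13, 5.44 and 6.80 FPKM in IMQ + BZLF skin (mean 5.70 ± 1.02). Every IMQ + BZLF sample lay below every IMQ + NS sample, and control replicate 1 lay above all other controls and above the IMQ + NS samples. The difference between IMQ + BZLF and IMQ + NS skin was -0.49 (95% confidence interval -0.78 to -0.20) and missed the threshold (adjusted p = 0.0558; exact permutation p = 0.0286), and, with single samples left out, it passed without IMQ + BZLF replicate 4 (-0.58, adjusted p = 0.0344). Between IMQ + NS and control skin the difference was 0.25 (95% confidence interval -0.06 to 0.55, adjusted p = 0.145), and Osmr rose there when control replicate 1 was left out (0.37, adjusted p = 0.0187). Genes most like Osmr were Csf2rb (r = 0.939), Stat3, the transducer of OSMR and gp130 (r = 0.924), and Nqo1 (r = 0.922).

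The ratio of Osmr to Il31ra FPKM, the IL-31 receptor chains, is given here for each sample. Osmr stood at 4.19, 4.02, 1.28 and 1.23 times the FPKM of Il31ra in control replicates 1 to 4. The ratio was 11.4, 10.5, 9.20 and 13.9 in IMQ + NS and 5.24, 5.73, 6.82 and 6.93 in IMQ + BZLF replicates 1 to 4. The 3 groups did not overlap, with IMQ + BZLF between the others. The denominators of the IMQ groups are all at or below 1.07 FPKM, and the ratio was not tested. Neither Osmr nor Il31ra passed the test between the IMQ groups, and ratios of other gene pairs were not searched for the same separation.

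**Figure D4:**
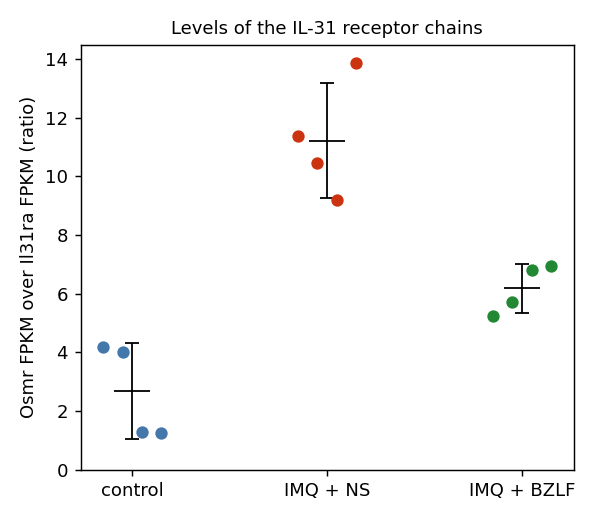
Ratio of Osmr to Il31ra FPKM (y axis, linear and starting at 0) in each sample of the 3 groups, replicates 1 to 4 from left to right within a group, with bars for the mean ± SD (n = 4). The means are 2.68 ± 1.65 in control skin, 11.2 ± 1.97 in IMQ + NS skin and 6.18 ± 0.83 in IMQ + BZLF skin, and the groups do not overlap.

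The remaining members of the likeness rule were Tslp, with Slc25a36 (r = 0.981), Lgals4 (0.955) and Tspyl2 (0.953), Crlf2, with Slfn2 (0.964), Serpinb1a (0.958) and the myeloid transcription factor Spi1 (0.954), and Il13ra1, with the Toll-like receptor Tlr2 (0.971), I830077J02Rik (0.971) and Arhgap45 (0.968). Il1rl1 was below the mean of 1 FPKM that this measure required. In mean level the order within control skin was Il13ra1, Crlf2, Il4ra, Il33, Osmr, Tslp, Il31ra and Il1rl1. The samples of Crlf2, Il4ra and Il33 overlapped there, as did those of Il33 and Osmr and those of Tslp and Il31ra, whereas Il13ra1 stood above and Il1rl1 below all others. In IMQ + NS skin Il33 was the second in mean level, with its samples below all those of Il13ra1 and overlapping those of Crlf2, Il4ra and Osmr, and in IMQ + BZLF skin it was the fifth, below Osmr, whose samples it overlapped.

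The ligands and effector cytokines of these receptors were low in all samples. Of 10 ligand genes, Il9 and Il31 had no value, Il5 was listed at 0 in all IMQ samples and in 3 of 4 controls and Il13 had a mean of 0.0919 FPKM, so 6 were tested. Of all genes tested 27.1% fell and 29.0% rose in IMQ + NS against control skin, and of the 6 ligands 3 fell and 0 rose. They were Il25, another epithelial alarmin (log2 fold change -1.57, adjusted p = 0.00129), Il7, which shares the IL-7 receptor alpha chain with TSLP (-1.16, adjusted p = 0.000861), and Lif, a cytokine of the oncostatin M family (-0.88, adjusted p = 0.0073). Il25 was at most 0.387 FPKM in control skin. Il4 stood at 0.272 ± 0.184 FPKM in control skin, 0.130 ± 0.0815 in IMQ + NS skin and 0.143 ± 0.133 in IMQ + BZLF skin, and Osm, the ligand of OSMR, at 0.414 ± 0.256, 0.582 ± 0.396 and 0.170 ± 0.115 FPKM. Between IMQ + BZLF and IMQ + NS skin 0 of the 6 passed the test. Against control skin 2 fell with BZLF (Lif -1.52 and Il7 -1.0), where 29.2% of all genes fell.

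Of 12 partner and decoy receptor chains, 10 were tested. In IMQ + NS against control skin 1 chain rose and 2 fell, where 29.0% of all genes tested rose and 27.1% fell. The rise was Il17ra, the chain shared by the IL-17 and IL-25 receptors (log2 fold change 0.60, adjusted p = 0.00211). The falls were Lifr, the LIF receptor (-0.76, adjusted p = 0.00219), and Il6st, which encodes gp130 (-0.51, adjusted p = 0.000578). With BZLF, 4 fell against IMQ + NS skin: Il2rg, the common gamma chain that pairs with IL-4 receptor alpha on lymphocytes (-0.83, adjusted p = 0.0445), Csf2rb (-0.82, adjusted p = 0.0448), Il6ra (-0.54, adjusted p = 0.0295) and Il17ra (-0.46, adjusted p = 0.0365). All 10 had a difference below 0, with a median of -0.44, against -0.023 over all genes, of which 5.17% fell and 1.28% rose. Between the same groups all 6 neutrophil markers fell (median log2 fold change -3.12), as did 2 of 6 macrophage and dendritic cell markers, and their part in the levels of these chains was not tested. These 4 calls depended on single libraries: 1 chain passed without IMQ + BZLF replicate 1, IMQ + NS replicate 2 or IMQ + NS replicate 4. With IMQ + BZLF replicate 2, IMQ + BZLF replicate 3 or IMQ + NS replicate 3 left out, 0 passed. Other partner chains did not pass in either of these comparisons, with Il7r, the partner of Crlf2, at 1.11 ± 0.334, 1.35 ± 0.242 and 0.924 ± 0.263 FPKM, Il1rap, the partner of ST2, at 3.29 ± 0.482, 3.38 ± 0.487 and 2.74 ± 0.412 FPKM, and the decoy chain Il13ra2 at 1.13 ± 0.118, 1.28 ± 0.539 and 0.899 ± 0.270 FPKM in control, IMQ + NS and IMQ + BZLF skin. Against control skin 5 chains fell with BZLF and 0 rose, where 29.2% of all genes fell and 23.8% rose.

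All 13 signal transducers were tested. In IMQ + NS against control skin 3 rose and 5 fell, where 29.0% of all genes tested rose and 27.1% fell. Among these transducers were Stat5b and Stat5a, which serve the TSLP receptor (log2 fold change -0.87, adjusted p = 8.9e-05, and -0.74, adjusted p = 0.000819). Traf6 (0.59, adjusted p = 0.000656) and Stat3 (0.36, adjusted p = 0.0191) rose. The total of 8 calls was 4 without control replicate 3 and 5 without control replicate 1 or control replicate 4. Against IMQ + NS skin, 4 fell and 0 rose with BZLF: Stat3 (-0.65, adjusted p = 0.0172), Myd88, the adaptor of ST2 (-0.54, adjusted p = 0.0312), Jak1 (-0.43, adjusted p = 0.0411) and Stat6, the transducer of IL-4 and IL-13 (-0.23, adjusted p = 0.0367). All 13 differences were at or below 0, with a median of -0.17, against -0.023 over all genes, of which 5.17% fell and 1.28% rose. The part of the neutrophil and macrophage markers, which fell in this comparison as given beside the partner chains, was not tested here either. The number that passed was 2 without IMQ + BZLF replicate 1, 3 or 4, and 1 without IMQ + NS replicate 2. It was 0 when IMQ + BZLF replicate 2, IMQ + NS replicate 3 or IMQ + NS replicate 4 was left out. Against control skin 1 rose and 7 fell with BZLF, where 23.8% of all genes rose and 29.2% fell.

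Of 16 genes known as targets of type 2 cytokines or of the STAT proteins, 15 were tested. In IMQ + NS against control skin 4 targets rose and 5 fell, where 29.0% of all genes tested rose and 27.1% fell. The falls included Retnla (log2 fold change -5.00, adjusted p = 8.0e-06) and the eosinophil chemokine Ccl24 (-3.61, adjusted p = 8.1e-06), both induced by IL-4 and IL-13 through STAT6 in macrophages, and the Th2 chemokine Ccl17 (-1.62, adjusted p = 0.00104). The rises included Chil3, which neutrophils also express (3.44, adjusted p = 0.00142), and Arg1 (1.88, adjusted p = 6.9e-05). BZLF-treated against IMQ + NS skin gave 2 rises and 3 falls, where 1.28% of all genes rose and 5.17% fell. The rises were Retnla (1.77, adjusted p = 0.00413) and Ccl24 (1.32, adjusted p = 0.00354). The falls were Chil3 (-3.44, adjusted p = 0.0147), Bcl3 (-1.07, adjusted p = 0.0183) and Socs3, a STAT3 target (-0.89, adjusted p = 0.0241). The total of 5 calls was 3 without IMQ + BZLF replicate 2, IMQ + NS replicate 3 or IMQ + NS replicate 4. Retnla thus moved opposite to Il4ra between these groups. It was at 14.8, 10.4, 18.9 and 20.6 FPKM in IMQ + NS and 37.9, 57.7, 64.4 and 58.7 FPKM in IMQ + BZLF replicates 1 to 4. Both ranges were far below the 313 to 786 FPKM of control skin. Of 6 macrophage and dendritic cell markers, 4 fell and 2 rose in IMQ + NS against control skin. There 5 of 6 fibroblast and 3 of 4 adipocyte markers also fell. The part of these cells in the levels of the targets was not tested. Against control skin 2 targets rose and 8 fell with BZLF, where 23.8% of all genes rose and 29.2% fell.

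**Figure D5:**
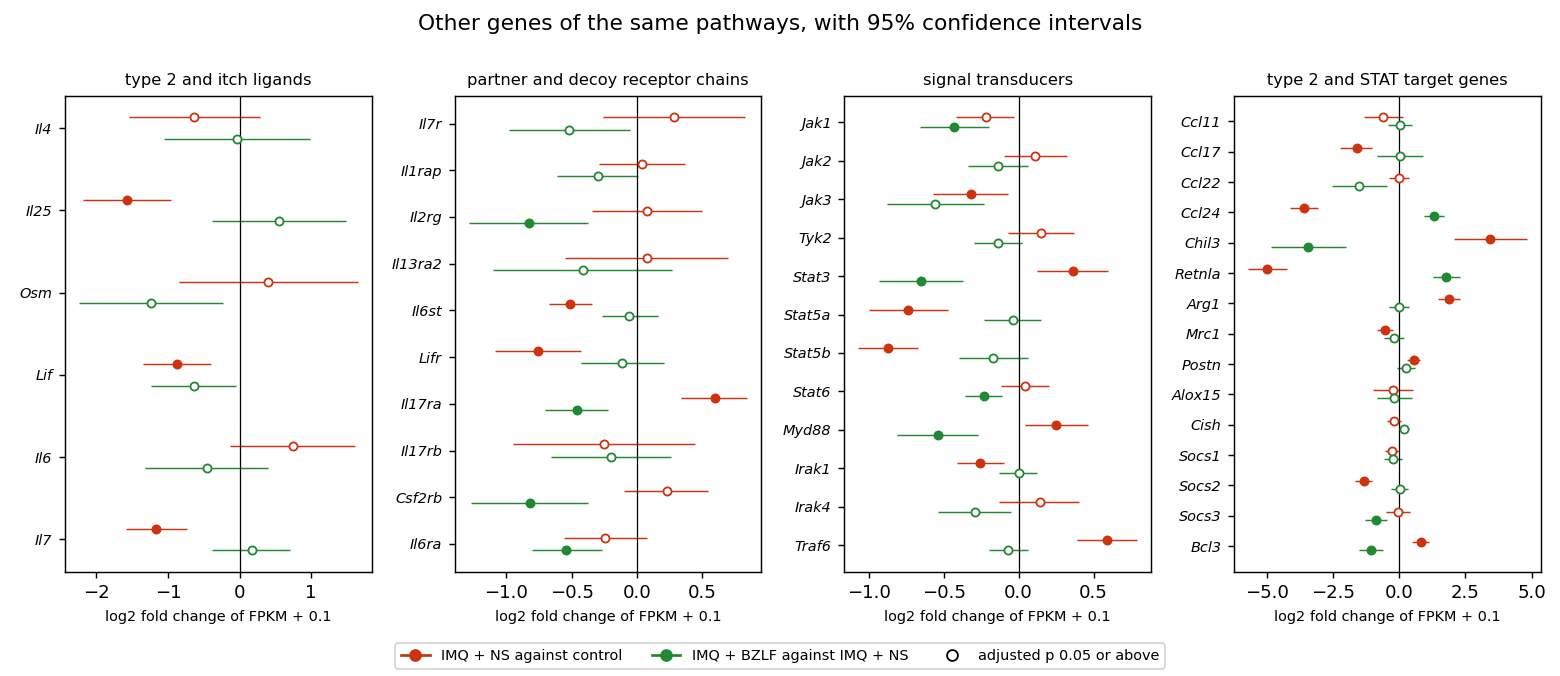
Log2 fold change of FPKM + 0.1 (x axis, with its own scale in each panel) of the other genes of these pathways that are reported here, in IMQ + NS against control skin and in IMQ + BZLF against IMQ + NS skin, with 95% confidence intervals from limma (4 samples per group); filled points have an adjusted p below 0.05. Retnla and Ccl24 lie at -5.00 and -3.61 in the first comparison and at 1.77 and 1.32 in the second, whereas all 10 tested partner chains lie below 0 in the second.

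The replicates also differed in level across the 8 genes together. IMQ + BZLF replicate 4 was the highest of its group for 6 of the 8 genes and replicate 1 the lowest for 6. In IMQ + NS skin replicate 3 was highest for 5 and replicate 1 lowest for 5, and in control skin replicate 1 was highest for 4 and replicate 2 lowest for 5. Replicates of a group carry no order in the study.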

How the data were processed

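RNA was sequenced from 12 mouse back skin samples, 4 per group. The authors deposited FPKM values, 1 per gene and sample. Their methods name Bowtie2 and eXpress for FPKM and counts, and DESeq2 for their own tests, whereas the submitters' processing notes list fastp, HISAT2, HTSeq, R 3.2.0 and the mm10 build; the versions of the other tools and the annotation are not given in the sources used here. The methods and the labels also name different extraction reagents and library kits. Only 13.2% of 16756 ratios of low values lay within 0.05 of a whole number, so counts were not recovered and the depth per sample is unknown. Nothing beyond the labels says that samples are separate animals, so p-values measure the spread between these samples.

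For the 15288 genes whose FPKM averaged 0.1 or more over the 12 samples, log2(FPKM + 0.1) was fitted with limma 3.58.1 in R 4.3.3, separately for each pair of groups, with moderated variances and a trend on expression, and the Benjamini-Hochberg adjustment ran over all genes tested. Fold changes are on this scale and understate changes of low genes. An exact permutation test, two-sided, was added for single genes with scipy 1.17.1 in Python 3.11.15, which cannot go below 0.0286. The method was run on data simulated from the means and spread of the IMQ + NS samples, for the comparison of the IMQ groups alone. Comparisons with control skin and changes in genes of low level were not simulated. Named were the 8 genes, up to 5 genes per pathway list with the largest changes among those that passed the test, ligands and partner chains of the 8, and the 3 genes of mean FPKM of at least 1 with the highest Pearson r to each of the 8 that reached that level. The gene lists were written by hand, and the result of 1 listed gene is not reported here by itself. The 8 genes and the lists were chosen with earlier results of these data known.

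The alternatives were a constant of 0.01 or 1, no filter or one at a mean of 1 FPKM, quantile normalization, median ratio scaling or equal sums, no trend, one fit of all 12 samples, the replicate number as a block, robust moderation, a 2-fold criterion, and each sample left out in turn. Leaving out control replicate 2 and IMQ + BZLF replicate 2 together was added after seeing the data.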

Additional observations from a re-analysis of the deposited data

Results flagged for a closer look

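Among the 24 groups of 4 values (8 genes in 3 groups), 4 held a sample that lay apart from the other 3 by Dixon's ratio of gap to range (95% critical value), and chance gives this in about 1 in 20 groups. Il33 in IMQ + BZLF replicate 4 was at 5.639 FPKM, with the nearest sample at 2.51 FPKM (ratio 0.839). Il1rl1 was at 1.529 FPKM in the same sample, against 0.6765 FPKM in the nearest (0.86), and at 1.308 FPKM in IMQ + NS replicate 2, against 0.8239 FPKM (0.885). Osmr in control replicate 1 was at 8.645 FPKM, against 6.26 FPKM (0.92).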

How the results depend on the processing

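The calls on Tslp, Il31ra, Il33, Il4ra, Crlf2 and Il13ra1 against control skin held in all other fits, with every scaling, filter and set of samples run, and no call on the 8 genes changed direction. In IMQ + BZLF against IMQ + NS skin, 2 genes fell, and 1 did so without a filter or with a 2-fold criterion; leaving out a sample gave 0 to 3. In IMQ + NS against control skin, leaving out a sample gave 0 to 1 gene that rose. In IMQ + BZLF against control skin, 3 genes passed the 2-fold criterion. The depth is unknown, so the number of reads behind levels near 1 FPKM (Il1rl1, Il31ra) cannot be given. The cause of these changes was not tested.

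The labels do not say that a replicate number marks a shared mouse, batch or day. Deviations of same-numbered samples correlated at -0.152 to 0.26, over 0.1 in 6 of 12 pairs (those of replicates 3 and 4), so the numbers were not used as pairs. Still, 7 of 12 correlated best with their own number, a hint from the data, not the design. Summed pancreas levels in control replicates 1 to 4 were 73.1, 94.1, 84.0 and 7.41 FPKM. They were 69.1, 88.1, 74.7 and 7.93 in IMQ + BZLF and 14.9, 18.1, 75.1 and 2.30 in IMQ + NS replicates. Seminal vesicle transcripts stood at 39.1 and 38.8 FPKM in replicate 2 of control and IMQ + BZLF skin, against 0.0166 in IMQ + NS replicate 2. Whether same-numbered samples were handled together was not tested. With the replicate block, 5 of the 8 genes fell in IMQ + BZLF against IMQ + NS skin, since Crlf2 (adjusted p = 0.0116), Osmr (0.0267) and Il13ra1 (0.0463) passed too, and 4 transducers passed in IMQ + NS against control skin instead of 8.

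No ligand reached a mean of 1 FPKM, so the filter at that level left the ligands untested in every comparison. Of the pathway lists in IMQ + NS against control skin, 0 partner chains and 0 transducers passed the 2-fold criterion. With a sample left out, 4 to 8 transducers passed there. In IMQ + BZLF against IMQ + NS skin, 4 partner chains passed, and 0 without a filter, 2 with median ratio scaling, 1 with equal sums, 2 with quantile normalization, 1 without a trend, 0 with the 2-fold criterion and 0 to 4 with a sample left out. The 4 transducers became 2 without a filter, 2 with median ratio scaling, 2 with equal sums, 2 with quantile normalization, 1 without a trend, 0 with the 2-fold criterion and 0 to 4 with a sample left out. The 5 targets became 3 without a filter and 3 to 6 with a sample left out. In IMQ + BZLF against control skin, the 2-fold criterion left 1 ligand, 0 partner chains, 1 transducer and 6 targets.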
